A study of Mesocricetus auratus with 38 samples.

Results

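Liver transcripts of 7 enzymes that break down proline, hydroxyproline and glyoxylate were followed in male Golden Syrian hamsters. The enzymes are Prodh, Prodh2, Aldh4a1, Hoga1, Grhpr, Agxt and Oat. They were chosen by gene symbol for their place in these pathways, with earlier results of these data known. All 7 of 7 were found among the 14631 symbols of the deposited tables. All of them passed the filter on low counts, which left 9099 genes to test. The study asked how a supplement of combined metabolic activators (CMA), which are L-carnitine, N-acetylcysteine, nicotinamide riboside and betaine, acts on the fatty liver that a high-fat diet induces.

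RNA was sequenced from 38 livers of hamsters aged 22 weeks. The HFD group (n = 10) was fed for 12 weeks on a diet in which fat supplied 23% of calories and to which cholesterol was added, with a placebo. The HFD + MI_D1 group (Dose I, n = 9) and the HFD + MI_D2 group (Dose II, n = 10) ate the same diet and received CMA during the last 4 weeks. Dose I was 200 mg/kg each of carnitine, N-acetylcysteine and nicotinamide riboside with 400 mg/kg betaine, and Dose II was 400 mg/kg each with 800 mg/kg betaine. The Chow diet group (control, n = 9) was fed a normal diet in which fat supplied 11% of calories. All animals were males of 1 age, and since the labels tie no library to an animal, 1 hamster per library was assumed and the p-values measure the spread between these libraries.

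Proline is opened in mitochondria by proline dehydrogenase to pyrroline carboxylate (P5C), which is also what ornithine aminotransferase makes from ornithine, and P5C dehydrogenase turns P5C into glutamate. Hydroxyproline, which is released when collagen is broken down, follows a parallel route that ends in pyruvate and glyoxylate. Liver has to remove glyoxylate, because glyoxylate that is oxidized becomes oxalate, and people who lack AGXT, GRHPR or HOGA1 develop primary hyperoxaluria.

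Total estimated counts ran from 5.20e+06 to 6.50e+06 per HFD library, from 4.67e+06 to 6.40e+06 per Dose I library, from 4.74e+06 to 8.42e+06 per Dose II library and from 4.08e+06 to 1.04e+07 per control library. The study set aside 1 control after a principal component analysis. Control C105 stood apart here, with a score of 19.2 on the first component (27.5% of the variance), while the other 8 controls lay between -23.1 and -12.7 and all other 37 libraries between -23.1 and 12.3. C105 was therefore left out of the values below (37 libraries, 8 controls), and each call that its return changed is given with all 38. Libraries also differed in how levels ran with gene length (Spearman's rho over genes). This rho was 0.122 to 0.337 in the 8 controls and -0.358 in C105. It was -0.207 to 0.165 in HFD, -0.27 to 0.14 in Dose I and -0.283 to 0.117 in Dose II libraries. Comparisons with control therefore also differ in this trend, and its removal was 1 of the alternative settings. With the trend removed, no member's call for HFD against control changed, while Agxt newly passed at both doses against control. Hepatocyte markers marked the tissue as liver, with a summed level of 95464 to 165669 TPM (transcripts scaled to a fixed total per library, a level per transcript length) over 7 genes. Markers of the kidney, where several of the 7 enzymes are also made, summed to at most 0.0720 TPM over the 3 genes in the table.

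In the order of mean TPM over the 37 libraries, Hoga1 came first with 224 ± 54.9, followed by Grhpr with 121.4 ± 19.2, Agxt with 113.3 ± 30.0, Aldh4a1 with 91.2 ± 20.8, Prodh2 with 75.1 ± 26.5, Prodh with 67.3 ± 14.998 and Oat with 10.5 ± 5.83 (SD). The last place was well separated, as Prodh exceeded Oat in 37 of 37 livers. Hoga1 exceeded Grhpr in 36 of 37 livers. It exceeded Agxt in 10 of 10 HFD, 9 of 9 Dose I and 10 of 10 Dose II livers but in only 4 of 8 control livers, so the first place was not separated in the control group. The means of the genes in between differed from their neighbours by less than the larger SD of the pair, and Grhpr exceeded Agxt in only 25 of 37 livers. Between 44 and 489 estimated counts per library stood behind Oat, and between 171 and 4393 behind the other members.

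In the HFD group compared with the control group, 6 of the 7 members changed at an adjusted p under 0.1, against 36.2% of all genes tested. Prodh, Prodh2, Hoga1 and Grhpr rose and Agxt and Oat fell, against 18.1% of genes that rose and 18.1% that fell. With CMA at Dose II, Prodh and Hoga1 rose above the HFD group, in a comparison in which 5.63% of genes changed, 3.37% upward and 2.25% downward, and no member fell. The median log2 fold change of the members was 0.28 for HFD against control and 0.29 for Dose II against HFD, while the medians over all genes tested were 0.01 and -0.00. With C105 the members' medians were 0.10 and 0.29, so the first of them depended on the control set. With C105 included, Prodh and Hoga1 rose and Agxt and Oat fell between HFD and control, where 15.6% of all genes changed, 6.63% upward and 8.94% downward. Prodh and Hoga1 also rose at Dose II against HFD with C105, where 2.70% of genes changed and 1.63% rose. The comparisons with the HFD group and those with the control group share those libraries.

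**Figure D1:**
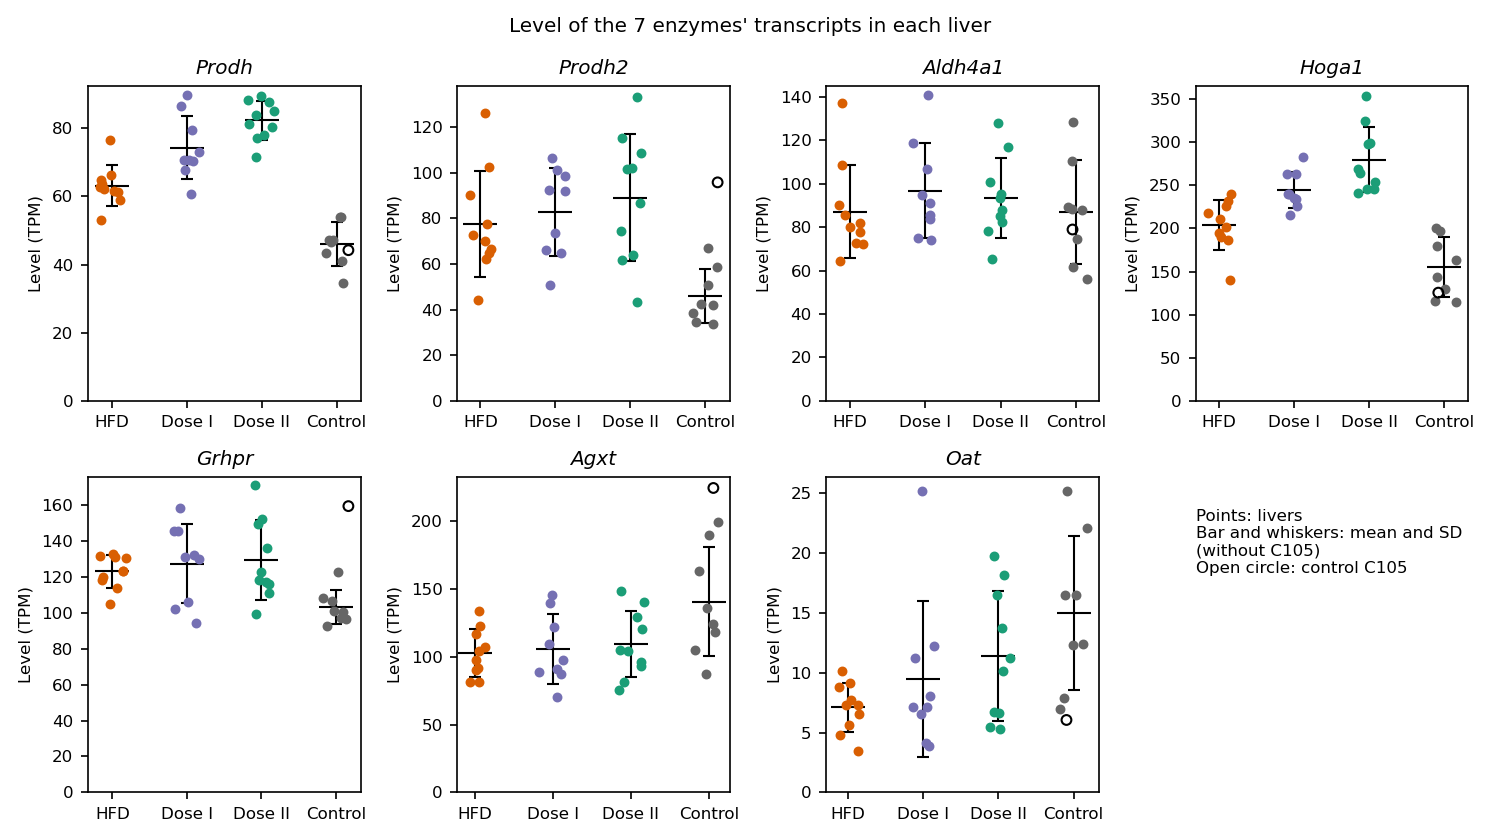
Level in TPM (vertical axes, from 0) of the 7 transcripts in each liver of the HFD, Dose I, Dose II and control groups. Points are livers, the bar and whiskers are the mean and SD without C105, and the open circle is control C105, which lies at 224 TPM for Agxt. The 10 Dose II livers of Hoga1 lie between 242 and 353 TPM, all above the 10 HFD livers.

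Prodh, proline dehydrogenase, carries out the first step of proline breakdown and passes electrons to the respiratory chain. Its lowest, median and highest levels were 52.9, 62.4 and 76.6 TPM in the HFD group, 60.8, 70.7 and 89.6 TPM in the Dose I group, 71.7, 82.6 and 89.5 TPM in the Dose II group, and 34.5, 46.9 and 54.02 TPM in the control group. The means were 63.1 ± 6.003 TPM in the HFD group, 74.3 ± 9.25 TPM in the Dose I group, 82.3 ± 5.64 TPM in the Dose II group and 45.99 ± 6.45 TPM in the control group (SD, n = 10, 9, 10 and 8). The median was lowest in the control group and highest at Dose II, where no liver lay above the highest Dose I liver, and 9 of 10 HFD livers lay above every control.

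Prodh rose in HFD against control with a log2 fold change of 0.47 ± 0.08 (SE), a 1.39-fold difference (edgeR adjusted p = 6.02e-05). With C105 it was 0.41 (edgeR adjusted p = 0.00159). It rose again at Dose II against HFD, by 0.46 ± 0.07 on the log2 scale or 1.37-fold (edgeR adjusted p = 5.14e-04), and 9 of 10 Dose II livers lay above every HFD liver. At Dose I the log2 fold change against HFD was 0.30 ± 0.08 (edgeR adjusted p = 0.121), and 8 of 9 Dose I livers lay above the HFD median. That value missed the threshold in the fit of all 37 libraries, and it passed without Dose I liver DI120 (log2 fold change 0.31, edgeR adjusted p = 0.0991), without DI122 (0.33, edgeR adjusted p = 0.0529) and in DESeq2 (0.30, adjusted p = 0.0222), with adjusted p from 0.0222 to 0.246 over all alternatives tried. The difference between Dose II and Dose I was 0.16 ± 0.08 (edgeR adjusted p = 1). Prodh was 1.90-fold higher at Dose II than in the control group (log2 fold change 0.93 ± 0.08, edgeR adjusted p = 2.90e-10), with no overlap between the 2 groups, a separation upward shown by 1.30% of all genes tested. Prodh was the member whose estimated counts were not whole numbers in 38 of 38 libraries (tolerance 0.001). Its level therefore rests in part on how kallisto shared out reads that also matched transcripts not counted under Prodh. What those reads also matched was not examined. Counts were not whole in 7 of 38 libraries for Hoga1 and in 1 each for Aldh4a1 and Grhpr.

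Aldh4a1, the mitochondrial P5C dehydrogenase that makes glutamate from P5C and also acts on the matching intermediate of hydroxyproline breakdown, did not pass the test in any of the 6 comparisons. The lowest, median and highest levels of Aldh4a1 were 64.2, 81.1 and 137.3 TPM in the HFD group, 74.1, 91.0 and 140.7 TPM in the Dose I group, 65.4, 90.7 and 128.1 TPM in the Dose II group, and 55.9, 88.2 and 128.3 TPM in the control group. The 4 groups overlapped over most of their range. The log2 fold change of HFD against control was 0.02 ± 0.16 (95% interval -0.30 to 0.34, edgeR adjusted p = 0.945), so the interval excludes a rise as large as the estimate for Prodh and leaves room for smaller changes in either direction. Dose II against HFD gave 0.18 ± 0.15 (95% interval -0.12 to 0.48, edgeR adjusted p = 0.560) and Dose I against HFD gave 0.21 ± 0.15 (95% interval -0.10 to 0.52, edgeR adjusted p = 0.700).

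Oat, ornithine aminotransferase, links ornithine and the urea cycle to P5C, and in mouse liver its transcripts are concentrated in pericentral hepatocytes. From lowest through median to highest, Oat measured 3.49, 7.33 and 10.1 TPM in the HFD group, 3.85, 7.15 and 25.2 TPM in the Dose I group, 5.33, 10.7 and 19.8 TPM in the Dose II group, and 6.95, 14.4 and 25.2 TPM in the control group. All 10 HFD livers lay below the control median, and 4 of them below every control. The coefficient of variation was 28.9% in the HFD group, 68.6% at Dose I (39.7% without liver DI127), 47.8% at Dose II and 42.9% in the control group.

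Oat fell in HFD against control with a log2 fold change of -1.06 ± 0.30 (SE), which leaves 0.478 of the control level (edgeR adjusted p = 0.00754). C105, at 6.05 TPM, was the lowest control, and with it the log2 fold change was -0.996 (edgeR adjusted p = 0.0268). Dose II stood 0.75 ± 0.29 above HFD on the log2 scale (95% interval 0.17 to 1.33), which missed the threshold after adjustment (edgeR adjusted p = 0.142) and passed it when only these 2 groups were fitted (0.73, edgeR adjusted p = 0.0978), with adjusted p from 0.0978 to 0.254 over all alternatives. Dose I against HFD gave 0.48 ± 0.30 (edgeR adjusted p = 0.645), and its highest liver, DI127 at 25.2 TPM, stood far above the next at 12.2 TPM. Without DI127 the log2 fold change of Dose I against HFD was 0.13 (edgeR adjusted p = 0.950). DI127 was singled out by its Oat level, so values without it lean toward a lower Dose I level. Against control, Dose I gave -0.58 ± 0.30 (edgeR adjusted p = 0.138) and without DI127 it gave -0.94 (edgeR adjusted p = 0.0100), while leaving out control C101 or C102 also took it past the threshold (edgeR adjusted p = 0.0967 and 0.0768), and adjusted p ran from 0.0100 to 0.277 over all alternatives. Dose II against control gave -0.32 ± 0.29 (95% interval -0.91 to 0.27, edgeR adjusted p = 0.405). Of the 5 pericentral hepatocyte markers tested, none rose and 2 fell (Cyp2e1 and Slc1a2) in HFD against control. Of all genes, 36.2% changed and 18.1% fell there. The other 3 markers did not pass, among them Glul with 0.05 ± 0.28 (edgeR adjusted p = 0.920). The part of these marker changes in the fall of Oat was not tested.

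Prodh2, hydroxyproline dehydrogenase, opens the hydroxyproline route as Prodh opens that of proline. Lowest, median and highest levels of Prodh2 were 44.1, 71.3 and 126.1 TPM in the HFD group, 50.9, 91.9 and 106.4 TPM in the Dose I group, 43.2, 94.2 and 133.02 TPM in the Dose II group, and 33.7, 42.4 and 67.01 TPM in the control group. All 10 HFD livers lay above the control median, but only 6 above every control. Prodh2 rose in HFD against control with a log2 fold change of 0.78 ± 0.19 (SE) or 1.71-fold (edgeR adjusted p = 0.00272).

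This call rested on the control set. C105 had 95.8 TPM of Prodh2, more than any other control, and with it the log2 fold change was 0.50 (edgeR adjusted p = 0.141). Adjusted p ran from 6.36e-04 to 0.141 over all alternatives. Both doses stood above the control group with and without C105. The log2 fold change was 0.93 ± 0.20 at Dose I (edgeR adjusted p = 3.96e-04, and 0.0416 with C105) and 1.06 ± 0.19 at Dose II (edgeR adjusted p = 3.58e-05, and 0.00798 with C105). Against HFD, Dose I gave 0.16 ± 0.18 (edgeR adjusted p = 0.850) and Dose II gave 0.29 ± 0.18 (95% interval -0.07 to 0.64, edgeR adjusted p = 0.394), and the groups overlapped.

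Hoga1 is the mitochondrial aldolase that splits the last intermediate of hydroxyproline breakdown into pyruvate and glyoxylate. Its lowest, median and highest levels were 141, 206 and 240 TPM in the HFD group, 215, 239 and 282 TPM in the Dose I group, 242, 267 and 353 TPM in the Dose II group, and 114.5, 153.5 and 200.4 TPM in the control group. The means were 204 ± 28.7 TPM in the HFD group, 244 ± 21.1 TPM in the Dose I group, 280 ± 37.7 TPM in the Dose II group and 156 ± 34.6 TPM in the control group (SD, n = 10, 9, 10 and 8). Each Dose II liver lay above each HFD liver, a separation shown by 0.0550% of all genes tested (5 genes), and all Dose I and Dose II livers lay above all controls, shown by 0.978% of genes for Dose I and 1.30% for Dose II.

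Hoga1 rose in HFD against control with a log2 fold change of 0.41 ± 0.10 (SE), a 1.33-fold difference (edgeR adjusted p = 0.00356, and 0.0138 with C105). At Dose II it rose by 0.53 ± 0.10 on the log2 scale or 1.44-fold against HFD (edgeR adjusted p = 0.00218, and 0.00424 with C105). Dose I gave 0.32 ± 0.10 against HFD, which missed the threshold in edgeR (adjusted p = 0.215) and passed it in DESeq2 (adjusted p = 0.0909, the lowest of all alternatives, which reached 0.366), and all 9 Dose I livers lay above the HFD median. For Hoga1 the difference between Dose II and Dose I was 0.20 ± 0.10 (edgeR adjusted p = 1). Against control, Hoga1 was 1.66-fold higher at Dose I (edgeR adjusted p = 3.99e-06) and 1.91-fold higher at Dose II (edgeR adjusted p = 2.79e-08).

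**Figure D2:**
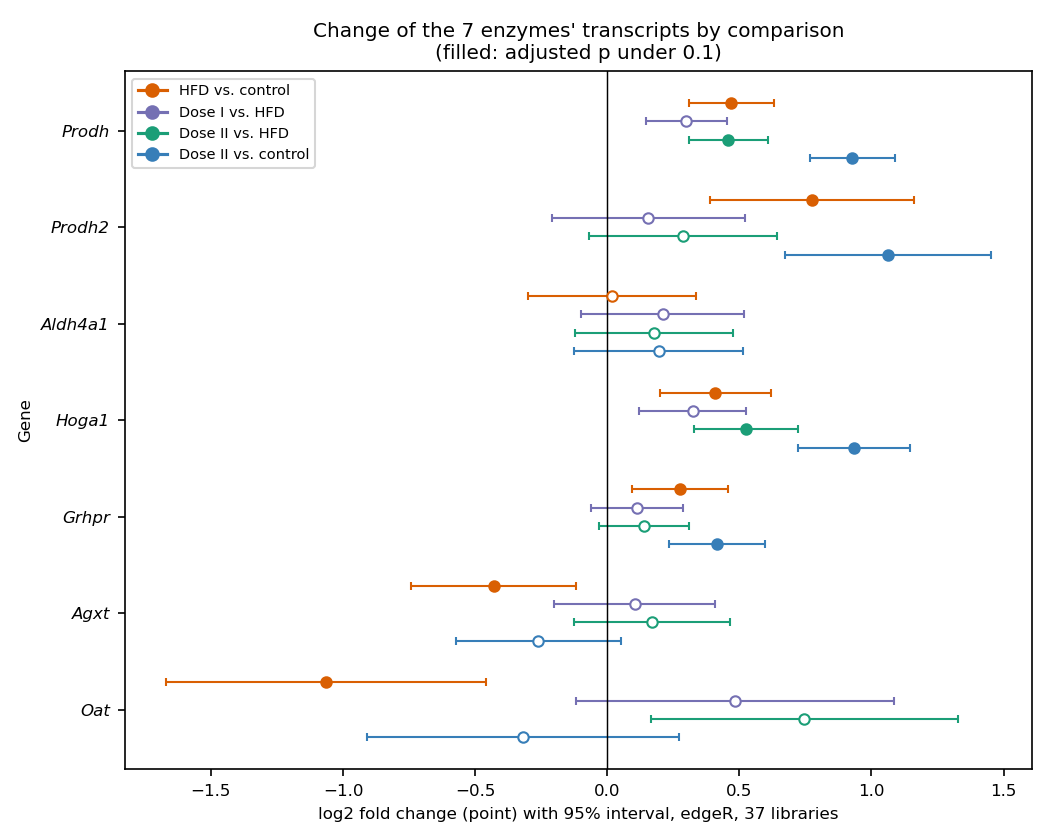
log2 fold change (horizontal axis) with its 95% interval from edgeR on 37 libraries for the 7 genes (vertical axis) in 4 comparisons. Filled points had an adjusted p under 0.1. Prodh and Hoga1 are filled for Dose II against HFD, at 0.46 and 0.53, and Oat and Agxt lie left of 0 for HFD against control, at -1.06 and -0.43.

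Grhpr, glyoxylate reductase, returns glyoxylate to glycolate and also reduces hydroxypyruvate. Its lowest, median and highest levels were 105.1, 123.3 and 132.5 TPM in the HFD group, 94.4, 130.8 and 158.6 TPM in the Dose I group, 99.2, 120.4 and 171.3 TPM in the Dose II group, and 92.6, 100.4 and 122.5 TPM in the control group. The HFD livers were close together and 6 of 10 lay above every control, whereas both CMA groups reached below the HFD range as well as above it. Grhpr rose in HFD against control with a log2 fold change of 0.28 ± 0.09 (SE) or 1.21-fold (edgeR adjusted p = 0.0204).

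The rise of Grhpr was the second call that ended with C105, which had 159 TPM. With that control the log2 fold change of HFD against control was 0.10 (edgeR adjusted p = 0.658), and over all alternatives adjusted p ran from 0.00528 to 0.658. The same held at both doses against control. Dose I gave 0.39 ± 0.09 (edgeR adjusted p = 0.00147) and 0.21 with C105 (edgeR adjusted p = 0.267), and Dose II gave 0.42 ± 0.09 (edgeR adjusted p = 3.52e-04) and 0.24 with C105 (edgeR adjusted p = 0.151). Against HFD, Dose I gave 0.11 ± 0.09 (edgeR adjusted p = 0.722) and Dose II gave 0.14 ± 0.08 (edgeR adjusted p = 0.383).

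Agxt encodes alanine-glyoxylate aminotransferase, the enzyme that turns glyoxylate into glycine and so keeps it from becoming oxalate. Agxt levels, lowest, median and highest, were 81.2, 100.995 and 133.4 TPM in the HFD group, 69.9, 97.4 and 145 TPM in the Dose I group, 75.2, 104.5 and 148.3 TPM in the Dose II group, and 87.5, 129.8 and 199.3 TPM in the control group. In the HFD group 9 of 10 livers lay below the control median, but only 2 below every control. C105 had 224 TPM, the highest of all 38 livers.

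Agxt fell in HFD against control with a log2 fold change of -0.43 ± 0.15 (SE), which leaves 0.743 of the control level (edgeR adjusted p = 0.0338). With C105 it was -0.62 (edgeR adjusted p = 0.0200), and without control C108 it was -0.33 and missed the threshold (edgeR adjusted p = 0.119), with adjusted p from 0.0170 to 0.119 over all alternatives. At the doses the call against control turned on the setting, and it was made in 12 alternatives at Dose I and in 5 at Dose II. Dose I gave -0.33 ± 0.16 (edgeR adjusted p = 0.110) and -0.51 with C105 (edgeR adjusted p = 0.0456), and Dose II gave -0.26 ± 0.15 (edgeR adjusted p = 0.179) and -0.45 with C105 (edgeR adjusted p = 0.0543). Against HFD, Dose I gave 0.10 ± 0.15 (edgeR adjusted p = 0.884) and Dose II gave 0.17 ± 0.15 (95% interval -0.13 to 0.46, edgeR adjusted p = 0.572).

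**Figure D3:**
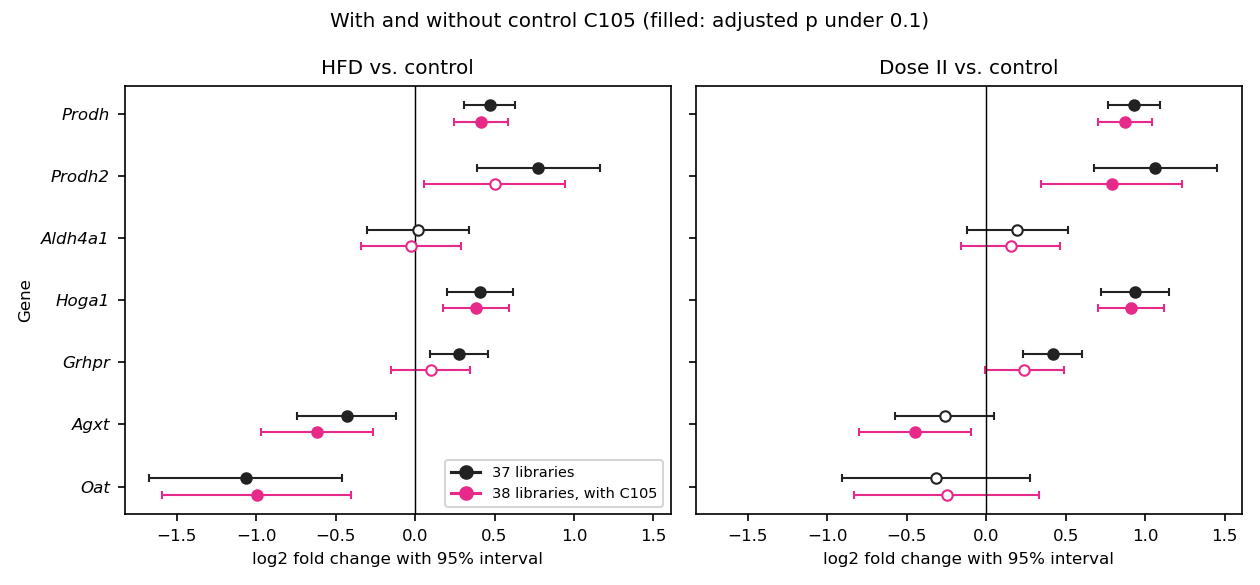
log2 fold change (horizontal axes) with its 95% interval from edgeR for the 7 genes (vertical axis), HFD against control on the left and Dose II against control on the right, with 37 libraries (black) and with C105 included (pink). Filled points had an adjusted p under 0.1. Prodh and Hoga1 are filled in all 4 fits, whereas Grhpr is at 0.28 without C105 and 0.10 with it for HFD against control.

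Counts of members called were the same at both doses against control but not against HFD. Against HFD, edgeR called 0 members at Dose I, where 0.187% of all genes changed, and 2 at Dose II, where 5.63% changed. Against control, 4 members rose at Dose I (Prodh, Prodh2, Hoga1 and Grhpr) and none fell, where 40.7% of all genes changed, 20.6% upward and 20.1% downward. The same 4 rose at Dose II and none fell, where 47.4% of all genes changed, 23.9% upward and 23.4% downward. With C105, Prodh, Prodh2 and Hoga1 rose and Agxt fell at each dose, where 21.8% of genes changed at Dose I (10.4% upward, 11.4% downward) and 32.9% at Dose II (15.6% upward, 17.3% downward). For Dose I against HFD no member passed in edgeR, which called 0.187% of all genes (0.154% upward, 0.0330% downward). With C105 no member passed in edgeR either, and 0.0553% of all genes did. An unadjusted p under 0.05 was found without C105 in edgeR for 2 of 7 members and for 9.28% of all genes. DESeq2 called 2 members. Of the 4980 genes to which it gave an adjusted p, 56 rose and 24 fell. Between Dose II and Dose I no member and 0% of all genes passed in edgeR, and DESeq2 called no gene. In edgeR 271 genes (2.98%) had an unadjusted p under 0.05, a smaller share than that threshold gives without any difference. Among them were 2 members, Prodh and Hoga1 (edgeR unadjusted p = 0.0429 and 0.0494). With C105, 2.21% of all genes and no member had such a value (edgeR unadjusted p = 0.0636 for Prodh and 0.0525 for Hoga1).

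Among 15 tested genes of proline and ornithine metabolism, chosen as neighbours of the members, 3 rose and 6 fell in HFD against control, where 36.2% of all genes changed, 18.1% in each direction. Pepd, a peptidase that frees proline and hydroxyproline from dipeptides, rose with a log2 fold change of 0.51 ± 0.16 (edgeR adjusted p = 0.0158) without C105 and stood at 0.22 with it (edgeR adjusted p = 0.516). Glud1, glutamate dehydrogenase, fell with a log2 fold change of -0.39 ± 0.08 (edgeR adjusted p = 4.83e-04), and Arg1, the arginase that supplies ornithine, with -0.51 ± 0.14 (edgeR adjusted p = 0.00772). With C105, 1 gene rose and 4 fell, where 15.6% of all genes changed. At Dose II against HFD, where 5.63% of all genes changed, only Got1, cytosolic aspartate aminotransferase, passed in this list, with 0.53 ± 0.13 (edgeR adjusted p = 0.0214), and at Dose I none did. The median of the list was -0.09 for HFD against control and 0.04 for Dose II against HFD.

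Of 16 tested genes around glyoxylate, glycolate, glycine and serine, 3 rose and 7 fell in HFD against control, where 36.2% of all genes changed, and 0 rose and 6 fell with C105, where 15.6% did. Hao1, the liver glycolate oxidase that makes glyoxylate, fell with a log2 fold change of -0.54 ± 0.13 (edgeR adjusted p = 0.00180). Dao, D-amino acid oxidase, which also yields glyoxylate from glycine, fell with -0.41 ± 0.10 (edgeR adjusted p = 0.00305), and Agxt2, a mitochondrial aminotransferase that can use glyoxylate, with -0.26 ± 0.07 (edgeR adjusted p = 0.00576). Ldhd, D-lactate dehydrogenase, rose by 0.33 ± 0.08 (edgeR adjusted p = 0.00140) without C105 and stood at 0.17 with it (edgeR adjusted p = 0.349).

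At Dose II against HFD, 3 of these 16 genes rose and none fell, where 3.37% of all genes rose and 2.25% fell. They were Shmt2, the mitochondrial serine hydroxymethyltransferase, with 0.59 ± 0.14 (edgeR adjusted p = 0.0116), Dao with 0.40 ± 0.10 (edgeR adjusted p = 0.0178) and Sds, serine dehydratase, with 1.08 ± 0.34 (edgeR adjusted p = 0.0691). No gene of the list passed at Dose I against HFD. At Dose II against control, 5 of the 16 rose and 5 fell, where 47.4% of all genes changed. With C105, 3 rose and 3 fell, where 32.9% did. Hao1 was among those below control at Dose II, with -0.58 ± 0.13 (edgeR adjusted p = 3.91e-04). Ldhd was among those above it, with 0.53 ± 0.08 without C105 and 0.36 with it (edgeR adjusted p = 0.0143 with C105). The medians of the list were -0.18 for HFD against control and 0.13 for Dose II against HFD.

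**Figure D4:**
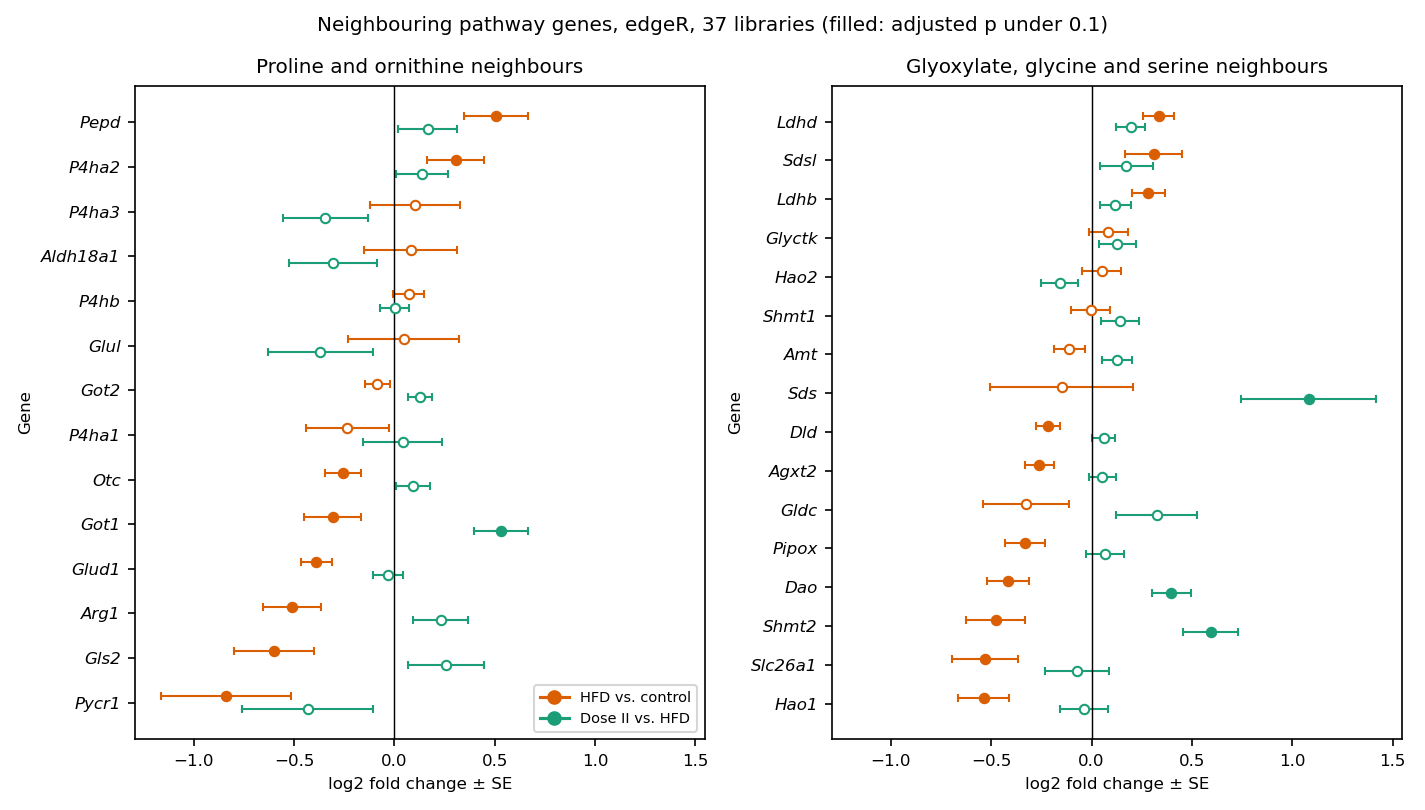
log2 fold change with its SE (horizontal axes) from edgeR on 37 libraries for 14 of the 15 proline and ornithine genes (left) and the 16 glyoxylate, glycine and serine genes (right), for HFD against control (orange) and Dose II against HFD (green). Filled points had an adjusted p under 0.1. Hao1 lies at -0.54 for HFD against control, and Sds at 1.08 for Dose II against HFD.

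Some markers of liver cell types changed in the same comparisons as the members. Of all genes, 18.1% rose and 18.1% fell in HFD against control, or 6.63% and 8.94% with C105. At Dose II against HFD 3.37% of all genes rose and 2.25% fell, and with C105 2.70% changed. General hepatocyte markers summed to 108042 to 141929 TPM in HFD livers and 143607 to 165669 TPM in control livers. Most of this sum was Alb, with a mean of 85579 ± 10382 TPM in HFD and 121038 ± 7596 TPM in control livers (SD). The means of Ttr (17716 against 14540 TPM) and Apoa1 (8337 against 7507 TPM) were higher in HFD than in control livers, so the sum does not stand for the whole list. Of 7 genes 1 rose (Ttr) and 2 fell (Alb and Serpina1) in HFD against control. With C105, Ttr no longer passed (log2 fold change 0.09, edgeR adjusted p = 0.674, against 0.32 without it), while Alb and Serpina1 still fell. Kupffer cell and macrophage markers rose for 6 of 9 genes in HFD against control, with a summed level of 185 to 306 TPM in HFD livers and 128.1 to 188 TPM in control livers, and fell for 5 of 9 at Dose II against HFD, where the sum was 128.6 to 230 TPM at Dose II. With C105 these counts were 2 of 9 and 1 of 9, and C105 itself had 267 TPM. Periportal hepatocyte markers rose for 4 of 9 genes at Dose II against HFD, with a summed level of 3171 to 5464 TPM at Dose II and 2139 to 3991 TPM in HFD livers, and 2 of the 9 fell in HFD against control (1 with C105). Of 6 endothelial markers, 2 rose in HFD against control and 1 fell at Dose II against HFD, and none passed with C105. Of 7 stellate cell and fibroblast markers, 1 fell in HFD against control (Reln, also with C105). Col1a1, Col1a2 and Col3a1 did not pass (edgeR adjusted p = 0.621, 0.809 and 0.382). Of 4 cholangiocyte markers, 1 rose there (Krt19, not with C105). Neither of these lists had a call at Dose II against HFD. Pericentral markers fell for 2 of 5 tested genes in HFD against control, with sums of 6398 to 9097 TPM in HFD livers and 8312 to 10829 TPM in control livers, and C105 had 5073 TPM. The part of these shifts in the members' changes was not tested, and in bulk liver RNA fewer cells of a type and less RNA per cell cannot be told apart.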

How the data were processed

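RNA-seq of 38 hamster livers was used. Kallisto (version not given in the sources used here) was run by the authors against the hamster assembly MesAur1.0, and the deposited estimated counts per gene symbol are not normalized. The deposited TPM values are the authors' counts divided by transcript length and scaled per library. Estimated counts shared between similar genes are split by kallisto's model.

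Estimated counts were rounded and fitted with edgeR's quasi-likelihood test (edgeR 4.0.16, limma 3.58.1, R 4.3.3) on the 4 groups at once, with TMM scaling, filterByExpr and Benjamini-Hochberg adjustment over 9099 genes. The threshold was the study's adjusted p of 0.1. Levels, ranges and overlaps are in TPM. The smallest difference between 2 libraries of a group exceeded sampling noise in each group, so none was counted as a repeat.

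The members and gene lists were chosen with earlier results of these data known. All 7 members are named, and of each neighbour list up to 4 genes with the smallest adjusted p per comparison, except 1 gene of the proline and ornithine list that is counted but not reported here. In simulated data with 200 changed genes, edgeR recovered 62.0% of changes of 0.5 on the log2 scale for HFD against control and 63.3% for Dose II against HFD. The real data had 36.2% of genes called for HFD against control and 5.63% for Dose II against HFD. Recovery depends on that share, so these rates do not carry over directly. The precision given covers the spread between libraries and counting error together. Alternatives were DESeq2 1.42.0, C105 included, only the 2 groups compared, RLE scaling, other filters, removal of each library's length trend, limma-trend on log2(TPM + 1) or log2(TPM + 0.1), and leaving out each library. The main fit was also read at an adjusted p under 0.05. The replicate numbers pair no samples.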

Additional observations from a re-analysis of the deposited data

Results flagged for a closer look

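Oat in Dose I liver DI127 stood apart from the other 8 livers of its group. It reached 25.18 TPM, the next liver had 12.25 TPM, and the gap took up 0.606 of the group's range. Groups of libraries tested in this way numbered 28, and chance gives about 1 such value in 20 groups. With DI127 left out, the log2 fold change of Oat at Dose I against control was -0.94 (edgeR adjusted p = 0.0100), while with it in place it was -0.58 (edgeR adjusted p = 0.138). Because DI127 was singled out by its Oat level, leaving it out lowers Dose I by construction. The first of these p-values is therefore a description and not a test.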

How the results depend on the processing

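No paired analysis was possible because the replicate numbers run once through all groups and no 2 groups share one. Of 1197 values under alternative settings, 1152 kept their direction and their side of the threshold, 27 passed it newly, 5 lost it and 13 changed sign. Most of these values came from fits that left out 1 library and shared all other data, and some from the main fit read at an adjusted p of 0.05. The settings are therefore not independent of each other, and a high share of unchanged values was to be found in advance. The sign changes were all of differences near 0 that had no call. Aldh4a1 in HFD against control was -0.0249 with C105 and ranged from -0.0846 to 0.123 when libraries were left out. Aldh4a1 in Dose II against Dose I ranged from -0.100 to 0.053, and Grhpr in that comparison from -0.0204 to 0.0781. The count of members changed at Dose I against HFD was 0 in edgeR, 2 in DESeq2 and 0 to 1 when libraries were left out. Over all genes, C105 lowered the calls for HFD against control to 1409, against 3296 without it, and for Dose II against HFD to 244, against 512. For Dose I against HFD edgeR called 17 genes, DESeq2 80, and edgeR 5 with C105 and 6 with only the 2 groups. On the TPM scale the calls of Dose II against HFD split into 151 that rose and 439 that fell, against 307 and 205 on counts. Agxt at Dose II against control passed when each library's trend with gene length was removed (log2 fold change -0.35, edgeR adjusted p = 0.0693).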

Other observations

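Agxt and Grhpr remove glyoxylate by different routes, and their levels stood in a different order in the HFD and the control livers. The ratio of Agxt to Grhpr in TPM had a median of 0.804 (0.613 to 1.27) in HFD livers, 0.691 (0.599 to 1.48) in Dose I livers, 0.922 (0.533 to 1.42) in Dose II livers and 1.32 (0.945 to 1.99) in control livers. It was above 1 in 1 of 10 HFD, 3 of 9 Dose I, 2 of 10 Dose II and 6 of 8 control livers. C105, whose levels of both transcripts were high, had a ratio of 1.41. The ratio was chosen after the values were seen and was not tested.

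Within groups, the members did not vary as 1 block. Over the deviations of 37 libraries from their group means, Pearson's r was 0.55 between Aldh4a1 and Agxt and 0.44 between Prodh2 and Agxt, while Hoga1 ran against Agxt (-0.43) and Prodh and Hoga1 had an r of 0.24. The genes most like each member on the same measure were Reep6 for Prodh (0.64), Slc39a5 for Prodh2 (0.91), Pgm1 for Aldh4a1 (0.85), Prdx3 for Hoga1 (0.76), Pja1 for Grhpr (0.66), Scap for Agxt (0.77) and Lmbr1l for Oat (0.58). Each value is a description over points that share libraries and depth.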
